A study of Caenorhabditis elegans with 36 samples.

Results

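The binding sites of HDA-1 and DVE-1 in unstressed worms were compared gene by gene. A protein-coding gene was assigned to a protein when a listed ChIP peak lay within 500 bp of its annotated 5′ end. Of 19973 protein-coding genes on the 6 nuclear chromosomes, 2668 had a peak of HDA-1 only (13.4%), 299 of DVE-1 only (1.50%), 3675 of both proteins (18.4%) and 13331 of neither (66.7%). The comparison rests on 6794 HDA-1 peaks and 4279 DVE-1 peaks, together 11073 of the 57748 peaks in the 8 lists of the series, and on 8 of its 36 samples. HDA-1 was precipitated from worms with an hda-1p::hda-1::gfp transgene and DVE-1 from worms with a dve-1p::dve-1::gfp transgene, both in the glp-4(bn2) background and each with 2 ChIP and 2 input samples, at Day 1 of adulthood. Both strains were fed bacteria with the empty RNAi vector L4440 and received no mitochondrial stress. GFP-tagged protein was captured with GFP-Trap, and paired reads were sequenced.

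Several features limit these worms as a model. Each tagged protein was made from a transgene under its own gene's promoter, in addition to the endogenous copy of the gene. The HDA-1 strain also carried the neuronal odr-1p::dsRed marker. Both strains carried glp-4(bn2), a temperature-sensitive allele that limits germ cell proliferation at the restrictive temperature. Whole worms were used, so a gene bound in few cells and a gene bound weakly in many cells cannot be told apart. Each condition has 1 list of peak positions, without height or score. The comparisons below therefore have no replicate check and no p-value. Intervals are 95% Wilson intervals for shares and Newcombe intervals for differences of shares, which cover counting error only. Genes are not independent replicates, because neighbours can share a peak: 51% of HDA-1-only genes, 46.8% of DVE-1-only genes and 58.2% of genes with both shared their peak (for the last class, the HDA-1 peak) with another gene of the class. A library from worms without a GFP tag was not analysed here.

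HDA-1 is a class I histone deacetylase, the worm counterpart of the mammalian enzymes HDAC1 and HDAC2, and removes acetyl groups from histone tails as a subunit of complexes such as NuRD. DVE-1 is a homeodomain protein related to mammalian SATB proteins, which bind AT-rich DNA and shape chromatin. In worms DVE-1 is known for the mitochondrial unfolded protein response, in which chaperone genes such as hsp-6 and hsp-60 are induced when mitochondria are damaged, and this response is most often followed in the intestine. GATA factors, with ELT-2 as the main one in the adult, drive transcription in the worm intestine through sites of the type TGATAA.

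Promoter stretches of 6 chosen genes give examples of 2 of the words that are counted by class at the end of this section. The first 4 are intestinal genes, and the last pair are neuronal genes with HDA-1 only. Each stretch is the 200 bases before the annotated 5′ end in the RefSeq genome WBcel235, which is the assembly ce11, written 5′ to 3′ along the gene's strand. No annotated protein-coding gene overlaps any of the 6. Capitals mark the GATA-type word CTTATCA and the word CTGCGTCTC, read on either strand. The stretch of cpr-1, a cysteine protease gene, lies at chrV:11975351-11975550 on the plus strand and has 200 of its 200 bases in a DVE-1 peak and 0 in an HDA-1 peak. The stretch of vit-2, a yolk protein gene, lies at chrX:5100842-5101041 on the plus strand and that of vit-6, another yolk protein gene, at chrIV:8260957-8261156 on the plus strand. Both lie wholly in peaks of both proteins. The stretch of pept-1, an intestinal oligopeptide transporter gene, lies at chrX:6456672-6456871 on the plus strand, wholly in a DVE-1 peak. It is shown because it has DVE-1 only but holds 0 copies of CTTATCA. It does hold 1 copy of the shorter site TGATAA, left in lower case. The stretches of rgef-1, a neuronal guanine nucleotide exchange factor gene, at chrV:9561675-9561874 on the minus strand, and of egl-21, a carboxypeptidase gene for neuropeptide processing, at chrIV:10481845-10482044 on the minus strand, lie wholly in HDA-1 peaks and have 0 bases in DVE-1 peaks.
cpr-1 (DVE-1 only): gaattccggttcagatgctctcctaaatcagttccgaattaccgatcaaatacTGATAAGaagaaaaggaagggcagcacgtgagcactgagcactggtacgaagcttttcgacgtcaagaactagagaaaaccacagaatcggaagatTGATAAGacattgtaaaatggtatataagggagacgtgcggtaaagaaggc
pept-1 (DVE-1 only): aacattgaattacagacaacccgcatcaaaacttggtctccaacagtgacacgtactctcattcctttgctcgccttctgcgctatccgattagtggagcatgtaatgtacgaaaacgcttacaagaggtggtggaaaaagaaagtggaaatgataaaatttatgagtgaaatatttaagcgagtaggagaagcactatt
vit-2 (both): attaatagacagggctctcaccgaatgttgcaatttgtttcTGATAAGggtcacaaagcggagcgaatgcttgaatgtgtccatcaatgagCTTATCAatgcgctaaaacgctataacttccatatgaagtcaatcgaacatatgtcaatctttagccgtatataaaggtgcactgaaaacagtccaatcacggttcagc
vit-6 (both): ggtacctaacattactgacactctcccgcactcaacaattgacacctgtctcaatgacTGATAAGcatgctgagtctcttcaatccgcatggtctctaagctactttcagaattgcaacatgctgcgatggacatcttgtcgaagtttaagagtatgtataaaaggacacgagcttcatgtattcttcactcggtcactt
rgef-1 (HDA-1 only): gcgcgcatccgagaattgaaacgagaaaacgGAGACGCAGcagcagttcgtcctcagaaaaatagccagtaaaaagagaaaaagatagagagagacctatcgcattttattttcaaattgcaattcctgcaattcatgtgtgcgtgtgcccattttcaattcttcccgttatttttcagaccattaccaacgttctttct
egl-21 (HDA-1 only): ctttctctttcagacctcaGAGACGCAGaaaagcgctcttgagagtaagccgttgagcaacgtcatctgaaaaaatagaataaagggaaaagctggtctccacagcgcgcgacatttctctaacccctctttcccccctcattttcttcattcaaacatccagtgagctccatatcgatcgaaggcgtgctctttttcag
The GATA-type word occurs 2 times in the stretch of cpr-1, 2 times in that of vit-2, 1 time in that of vit-6 and 0 times in the other 3. The word CTGCGTCTC occurs 1 time each in rgef-1 and egl-21 and 0 times in the other 4. These examples do not stand for their classes. In the windows counted below, CTTATCA was in 22.1% of DVE-1-only promoters and 12.9% of those with both. CTGCGTCTC was in 4.99% of HDA-1-only and 4.01% of DVE-1-only promoters, so it did not separate these classes.

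The classes were unequal in size. HDA-1 was listed at 6343 protein-coding genes (31.8%, 31.1 to 32.4) and DVE-1 at 3974 (19.9%, 19.3 to 20.5), so genes with both made up 57.9% of the HDA-1 genes and 92.5% of the DVE-1 genes. At 3674 of the 3675 genes with both, the peaks of the proteins overlapped inside the window itself. The nearest DVE-1 peak was a median of 6867 bp from the 5′ end of HDA-1-only genes, and 38% of them had none within 10 kb. DVE-1-only genes lay closer to the other protein, with a median of 2384 bp to the nearest HDA-1 peak and 27.4% of them within 1000 bp of one. At the limit itself, C10G8.8 and T07C4.12 had an HDA-1 peak at 500 bp and counted, and F54H5.3 and F59B1.6 had one at 502 bp and did not. For DVE-1, F21A9.2 at 499 bp and fbxa-83 at 500 bp counted, and madd-3 and otub-2 at 501 bp did not. The classes depend on the unequal length of the lists: with the HDA-1 list cut to its 4279 widest peaks, 1438 genes had HDA-1 only and 888 had DVE-1 only.

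Genes typical of different tissues fell into different classes. Of 20 intestinal genes, 16 had HDA-1 and 16 had DVE-1 (80.0% each, 58.4 to 91.9). Of 15 body wall muscle genes, 7 had HDA-1 (46.7%, 24.8 to 69.9) and 0 had DVE-1 (upper limit 20.4%). Of 24 neuronal genes, 12 had HDA-1 (50%, 31.4 to 68.6) and 2 had DVE-1 (8.33%, 2.32 to 25.8). Over all protein-coding genes the shares were 31.8% for HDA-1 and 19.9% for DVE-1. With the HDA-1 list cut to the length of the DVE-1 list, the counts were 12 HDA-1 and 16 DVE-1 genes in the intestinal list, 4 and 0 in the muscle list, and 10 and 2 in the neuronal list. The lists of typical genes are short and were written for this comparison from general knowledge.

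The intestinal genes were mostly shared, with 13 of 20 in the class with both. At vit-2 (chrX:5101042-5106169) an HDA-1 peak of 7314 bp and a DVE-1 peak of 7033 bp covered the whole gene. Both proteins also covered all of vit-6 and of asp-1, an aspartic protease gene, while at elt-2, the gene of the main intestinal GATA factor, a DVE-1 peak of 6136 bp reached the 5′ end and the nearest HDA-1 peak, of 1926 bp, lay 218 bp from it. The 3 intestinal genes with DVE-1 only were cpr-1, with a DVE-1 peak of 883 bp and the nearest HDA-1 peak 4133 bp away, pept-1, with 604 bp and 5087 bp, and ifb-2, an intermediate filament gene, with 4889 bp and 1062 bp. The 3 with HDA-1 only were ges-1, a gut esterase gene, ftn-1, a ferritin gene, and elt-7, a second gut GATA factor gene. The nearest DVE-1 peak lay 16515 bp from the 5′ end of ges-1, 81727 bp from that of ftn-1 and 38751 bp from that of elt-7. All 3 had a DVE-1 peak in each of the 3 other DVE-1 lists, which come from hda-1, atp-2 and hda-1 + atp-2 RNAi. itx-1, of the neurexin superfamily, had neither.

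The muscle genes with HDA-1 only were unc-89, which encodes the giant protein obscurin, unc-22 for twitchin, unc-15 for paramyosin, unc-27 for troponin I, mup-2 for troponin T, deb-1 for vinculin and dim-1, an immunoglobulin-domain gene. Their HDA-1 peaks were between 392 bp wide at mup-2 and 4944 bp at unc-27, and the nearest DVE-1 peak was between 1098 bp away at unc-27 and 31374 bp at mup-2. The myosin heavy chain genes myo-3 and unc-54 and the myogenic factor gene hlh-1 had neither. In other DVE-1 lists, 6 of the 7 muscle genes with HDA-1 only had a DVE-1 peak in at least 1 list, and dim-1 had none, while 69.5% of all HDA-1-only genes had one.

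Among neuronal genes, 10 had HDA-1 only and 2 had both, snb-1 for synaptobrevin and unc-18 for a protein that binds syntaxin. The 10 were unc-104, a kinesin gene for synaptic vesicle transport, ida-1 and unc-31 of dense core vesicles, unc-119, rgef-1, egl-21, ric-19, unc-64 for syntaxin, unc-10 for RIM and sng-1 for synaptogyrin. At ida-1 (chrIII:5755539-5765816) an HDA-1 peak of 11223 bp spanned the whole gene, with the nearest DVE-1 peak 6281 bp from the 5′ end, inside the gene, of which DVE-1 covered 593 bp. In unc-104 DVE-1 covered 2064 of 15639 bp. Of these 10, 7 had no DVE-1 peak at the 5′ end in any DVE-1 list (unc-104, ida-1, unc-119, egl-21, unc-31, rgef-1 and unc-10). Over all HDA-1-only genes, 813 of 2668 had none (30.5%, 28.8 to 32.2). The other 12 neuronal genes had neither. Some set the transmitter of a neuron: unc-17 and cha-1 for acetylcholine, unc-25 and unc-47 for GABA, eat-4 for glutamate, and tph-1 and cat-2 for serotonin and dopamine. The rest were rab-3, snt-1, unc-13, ric-4 and egl-3, so the genes with neither were not limited to transmitter genes.

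For other tissues, the shares over all genes were again 31.8% for HDA-1 and 19.9% for DVE-1. Of 9 pharyngeal genes, 3 had HDA-1 (33.3%, 12.1 to 64.6), near the share over all genes. Among these 3, the foregut factor gene pha-4 was the 1 that had DVE-1 as well. The remaining tissue lists had few peaks of either protein. Of 18 hypodermal and cuticle genes, 0 had HDA-1 and 1 had DVE-1, the collagen gene bli-1, with a DVE-1 peak 245 bp and an HDA-1 peak 583 bp from the 5′ end. Of 26 germline genes, 2 had HDA-1 and the same 2 had DVE-1 (cgh-1 and spo-11). Of 15 sperm genes 2 had HDA-1 only (spe-9 and ssp-10), and of 35 major sperm protein genes 0 had either.

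**Figure D1:**
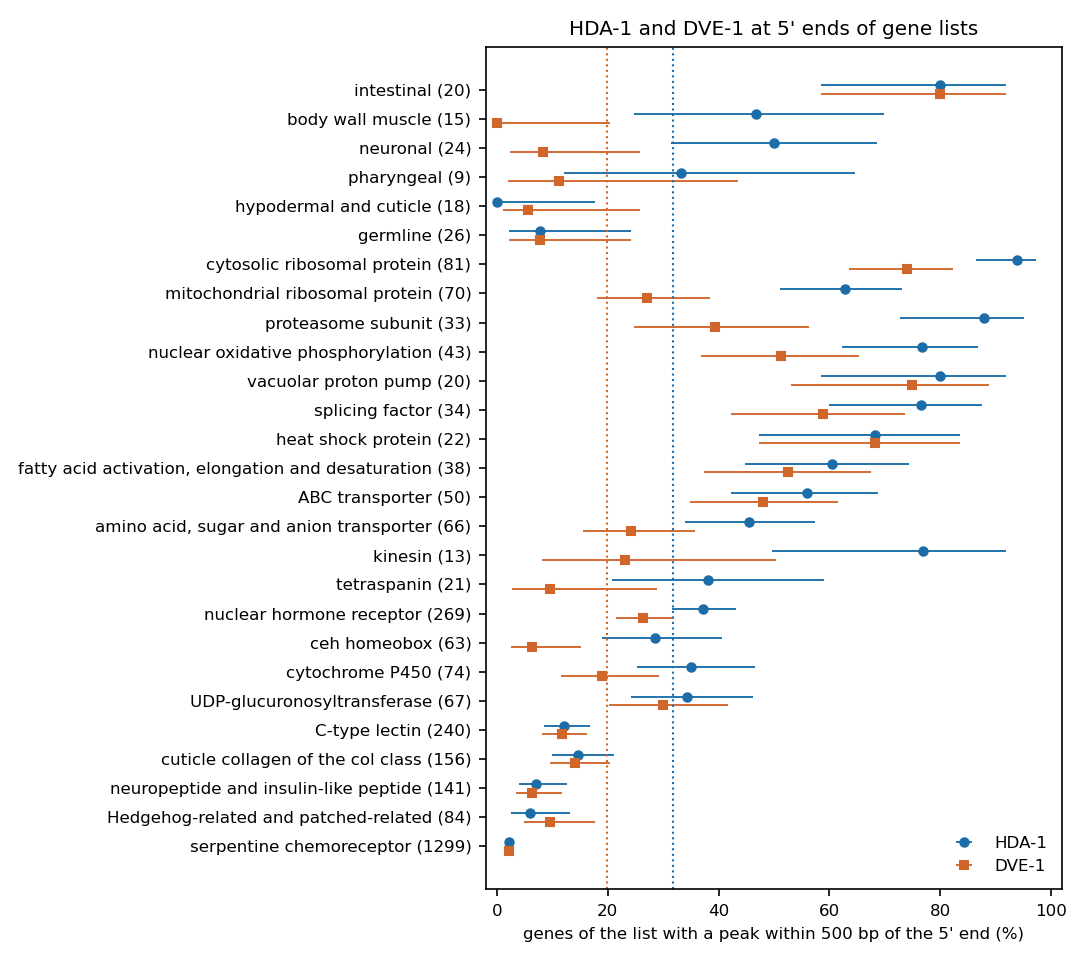
Share of genes with an HDA-1 peak (blue circles) or a DVE-1 peak (orange squares) within 500 bp of the 5′ end, in percent, for 27 gene lists with the number of genes in brackets; bars are 95% Wilson intervals and dotted lines the shares over all protein-coding genes, 31.8% for HDA-1 and 19.9% for DVE-1. Both shares are 80.0% for intestinal genes, while body wall muscle genes have 46.7% for HDA-1 and 0 for DVE-1.

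Among gene families, HDA-1 was listed at more genes than DVE-1 in 34 of 43 family and tissue lists, at as many in 6 and at fewer in 3. This tally depended on list length: with the HDA-1 list cut to the length of the DVE-1 list, 21 lists had more HDA-1 genes and 17 had more DVE-1 genes. Of all protein-coding genes 31.8% had HDA-1 and 19.9% had DVE-1. Cytosolic ribosomal protein genes had HDA-1 at 76 of 81 (93.8%, 86.4 to 97.3) and DVE-1 at 60 of 81 (74.1%, 63.6 to 82.4). Proteasome subunit genes, for protein degradation, had HDA-1 at 29 of 33 (87.9%, 72.7 to 95.2) and DVE-1 at 13 of 33 (39.4%, 24.7 to 56.3). Mitochondrial ribosomal protein genes had HDA-1 at 44 of 70 (62.9%, 51.1 to 73.2) and DVE-1 at 19 of 70 (27.1%, 18.1 to 38.5). Nuclear genes for oxidative phosphorylation had HDA-1 at 33 of 43 and DVE-1 at 22 of 43, and every one of the 22 also had HDA-1. None of these 4 families had a gene with DVE-1 only. The ribosomal share of DVE-1 depended on the distance allowed: with the peak required to cover the 5′ end itself, 65 of the 81 had HDA-1 and 24 had DVE-1. With lists of equal length, ribosomal protein genes had HDA-1 at 63 and DVE-1 at 60, mitochondrial ribosomal protein genes 24 and 19, and proteasome genes 23 and 13.

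In other families the gap was small. The vacuolar proton pump genes, which acidify lysosomes and related organelles, had HDA-1 at 16 of 20 and DVE-1 at 15 of 20, and vha-4 was the 1 gene with HDA-1 only. With lists of equal length these counts were 13 and 15. The fatty acid genes had 23 and 20 of 38 and the ABC transporter genes 28 and 24 of 50. The UDP-glucuronosyltransferase genes, for detoxification, had HDA-1 at 23 of 67 (34.3%, 24.1 to 46.3), near the share over all genes. They had DVE-1 at 20 of 67 (29.9%, 20.2 to 41.7). Heat shock protein genes had 15 and 15 of 22, with 13 in the class with both, among them the mitochondrial hsp-6 and hsp-60, the endoplasmic reticulum chaperone genes hsp-3 and hsp-4, and the cytosolic hsp-1, hsp-90 and hsp-110, and the DVE-1-only ones were the 2 genes named hsp-16.48. Genes in the class with DVE-1 only included 3 ABC transporter genes (pgp-11, pgp-12 and wht-2) and 4 carrier genes (aat-7, slc-17.6, slc-30A9 and pept-1).

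Over all genes the shares were 31.8% for HDA-1 and 19.9% for DVE-1, and some further families had wider gaps. Kinesin motor genes had HDA-1 at 10 of 13 and DVE-1 at 3 of 13, ceh homeobox genes 18 and 4 of 63, and tetraspanin genes 8 and 2 of 21. Cytochrome P450 genes had 26 and 14 of 74 (35.1% and 18.9%), each near the share over all genes. With lists of equal length kinesin genes had HDA-1 at 5 and DVE-1 at 3, and ceh genes 9 and 4, and with the peak required to cover the 5′ end kinesin genes had 5 and 2. Nuclear hormone receptor genes had a gap close to that over all genes, with HDA-1 at 100 of 269 (37.2%, 31.6 to 43.1) and DVE-1 at 71 of 269 (26.4%, 21.5 to 32.0). Several large families lay under the shares over all genes for both proteins: serpentine chemoreceptor genes had 28 and 27 of 1299, C-type lectin genes 29 and 28 of 240, cuticle collagen genes of the col class 23 and 22 of 156, and neuropeptide and insulin-like genes 10 and 9 of 141. Hedgehog-related genes were among the 3 lists with a larger count for DVE-1, 8 against 5 of 84 for HDA-1, with ptr-8, ptr-23 and wrt-10 in the DVE-1-only class.

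The genes of the mitochondrial stress response were not evenly shared in unstressed worms. Of 10 genes for mitochondrial chaperones, proteases and prohibitins, 10 had HDA-1 and 4 had DVE-1 (40.0%, 16.8 to 68.7). Over all genes the shares were 31.8% and 19.9%. The 4 with both were hsp-6, hsp-60, the prohibitin gene phb-2 and the protease gene ymel-1. At hsp-6 (chrV:4824124-4826760, minus strand) an HDA-1 peak of 9143 bp and a DVE-1 peak of 7361 bp covered the whole gene. At hsp-60 (chrIII:1619742-1625803) they were 7487 bp and 7372 bp wide and covered 59.9% and 78.4% of the gene. At phb-2 the HDA-1 peak covered the 5′ end and the DVE-1 peak of 321 bp lay 275 bp from it. The 6 with HDA-1 only were phb-1, spg-7, lonp-1, dnj-10, timm-17B.1 and tomm-20, with the nearest DVE-1 peak between 2015 bp away at timm-17B.1 and 14865 bp at dnj-10. Among them dnj-10, a mitochondrial DnaJ co-chaperone gene, had HDA-1 in all 3 other HDA-1 lists and DVE-1 in 0 of 3 other DVE-1 lists, lonp-1 was in no other list of either protein, and tomm-20, for an import receptor, had DVE-1 in all 3. phb-1 and spg-7 had DVE-1 in 2 other DVE-1 lists and timm-17B.1 in 1. In total 4 of the 6 had DVE-1 in another list, as did 69.5% of all HDA-1-only genes.

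Among 10 regulators of this response, atfs-1, the gene of its bZIP factor, was covered over its whole length by an HDA-1 peak of 7631 bp and a DVE-1 peak of 5195 bp. ubl-5, clpp-1 and the demethylase gene jmjd-1.2 also had both. haf-1, a mitochondrial peptide exporter gene, and dve-1 had HDA-1 only. hda-1, lin-65, met-2 and jmjd-3.1 had neither. The loci that the transgenes carry gave no peak of the tagged protein at its own 5′ end: the nearest HDA-1 peak was 14281 bp from the 5′ end of hda-1, and the nearest DVE-1 peak 23173 bp from that of dve-1. At dve-1 an HDA-1 peak of 5653 bp covered the 5′ end, in the strain without the dve-1 transgene. odr-1, whose promoter drives the marker in the HDA-1 strain, had neither, and glp-4 had both, with HDA-1 141 bp and DVE-1 356 bp from its 5′ end.

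Subunit genes of the complexes that class I deacetylases work in had HDA-1 at 8 of 10 and DVE-1 at 5 of 10. For this and the next lists, the shares over all genes were 31.8% for HDA-1 and 19.9% for DVE-1. dcp-66, lin-53, mep-1, spr-1 and chd-3 had both, and the Mi-2 gene let-418, the MTA gene lin-40 and sin-3 had HDA-1 only. Of 9 histone deacetylase genes, hda-6 and hda-11 had both and hda-4 and sir-2.1 had HDA-1 only. Of 12 GATA factor genes, egl-27, elt-2 and elt-4 had both and elt-7 had HDA-1 only, and at egl-27 the HDA-1 peak of 30944 bp was the widest of its list. Among 6 Hox genes, nob-1 had DVE-1 only, with a DVE-1 peak of 4369 bp over the 5′ end and an HDA-1 peak 515 bp from it, and the other 5 had neither. Of the 11 genes whose mRNA was followed by qPCR, 6 had both (tars-1, pgp-1, cyp-33C8, hmgs-1, cdr-4 and ipla-3), dnj-10 had HDA-1 only and 4 had neither. Of the genes used as reporters of other stresses, hsp-4 and hsp-16.2 had both and irg-1 neither.

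Some genes lay deep in the territory of 1 protein. HDA-1-only genes without a DVE-1 base in the gene, in the 500 bp before it or in 2000 bp on either side numbered 1826 (68.4% of the class), and the matching DVE-1-only genes 116 (38.8%). Among those with a symbol, the HDA-1-only genes with most bases covered from 500 bp before the 5′ end to the end of the gene were casy-1, a calsyntenin gene of neurons (10219 of 11779 bp), syd-9 (6860 of 9233 bp), sue-1 (6297 of 11809 bp), tsct-1 (5915 of 10319 bp), nac-3, a dicarboxylate transporter gene (5631 of 5631 bp), snt-4, a synaptotagmin gene (5581 of 5581 bp), mcp-1 (5094 of 7869 bp) and lst-2 (4873 of 5863 bp). Of these 8, 6 had HDA-1 in all 3 other HDA-1 lists and DVE-1 in none of the other DVE-1 lists, and the exceptions were tsct-1 and lst-2. The DVE-1-only genes covered fewer bases. They were brp-1 (4193 of 5270 bp), pals-23 (3687 of 3694 bp), epic-2 (2557 of 2783 bp), clec-51, a C-type lectin gene (2098 of 2348 bp), acp-6, an acid phosphatase gene (2040 of 2040 bp), nlp-26, a neuropeptide-like gene (1574 of 1574 bp), col-98, a collagen gene (1569 of 1719 bp), and fbxa-60, an F-box gene (1498 of 2068 bp). Of these 8, clec-51 was the 1 with DVE-1 in all 3 other DVE-1 lists and HDA-1 in none.

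The 6 genes with most bases under both proteins, a rule that favours long genes, were as follows. daf-16, the FOXO factor gene of insulin signalling, had 20188 of 26706 bp under both, hlh-30, the TFEB gene of lysosome biogenesis, 17926 of 20659 bp, the growth regulator gene ncl-1 17460 of 18877 bp, the phosphatase gene vhp-1 16911 of 18054 bp, the elongation factor gene ell-1 14194 of 21714 bp and the kinase gene mnk-1 13124 of 13124 bp. All 6 were in every other list of both proteins.

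**Figure D2:**
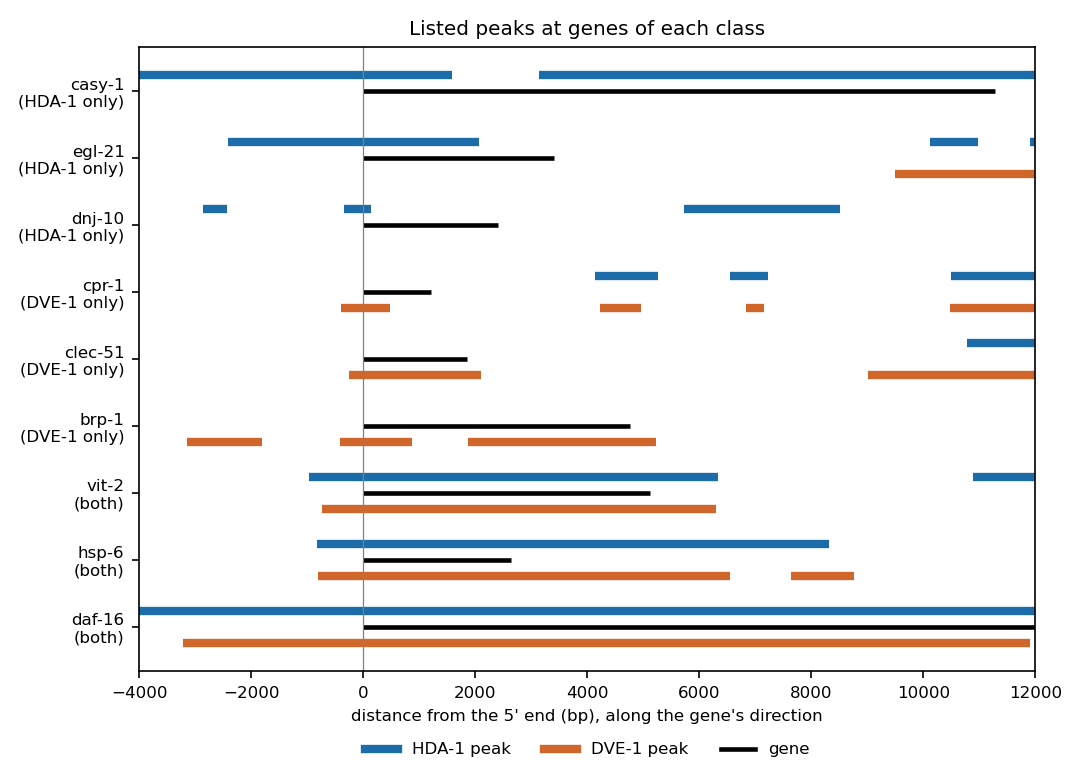
Listed HDA-1 peaks (blue) and DVE-1 peaks (orange) around 9 genes (black lines), by distance in bp from the 5′ end along the gene; the class is given under the name and daf-16 is cut at 12000 bp. casy-1, egl-21 and dnj-10 have blue bars alone at the 5′ end, cpr-1, clec-51 and brp-1 orange bars alone, and vit-2, hsp-6 and daf-16 both.

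The classes were spread differently over the chromosomes. Worm autosomes have gene-dense central regions rich in housekeeping genes and arms with many recently expanded families, and chromosome X is poor in germline genes. HDA-1 was listed at 41.4% of the genes of chromosome III and at 23.8% of those of chromosome V. Of HDA-1-only genes 14.7% lay on X, against 8.70% of DVE-1-only genes, a difference of 5.96 points (2.0 to 8.99), while genes with both had 17.2% and genes with neither 12.6%. On chromosome V lay 18.3% of HDA-1-only genes and 27.1% of DVE-1-only genes (difference -8.84 points, -14.3 to -3.88), against 25% of all genes. DVE-1-only genes there differed from genes with neither by -0.845 points (-5.63 to 4.51). On chromosome III lay 18.1% of HDA-1-only genes and 11.7% of DVE-1-only genes (difference 6.36 points, 1.99 to 9.87), against 11.3% of genes with neither and 13.2% of all. On I, II and IV the intervals of the difference included 0.

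Along chromosomes, DVE-1-only genes lay towards the ends. When each chromosome was divided into 3 segments of equal length, the central segments held 46.1% of HDA-1-only genes, 27.4% of DVE-1-only genes, 42.8% of genes with both and 34.9% of genes with neither. HDA-1-only genes exceeded DVE-1-only genes there by 18.7 points (13.1 to 23.8). Of the autosomal genes with DVE-1, 5.44% (4.37 to 6.76) in central segments and 10.3% (8.98 to 11.7) in outer segments lacked HDA-1. The clearest case was chromosome III, where the central segment held 242 genes with HDA-1 only and 3 with DVE-1 only. The size of this difference depended on how peaks were given to genes: with each peak given to the nearest gene alone, it was 6.86 points (2.11 to 11.4), and the difference on chromosome V was -0.898 points (-4.88 to 2.73).

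**Figure D3:**
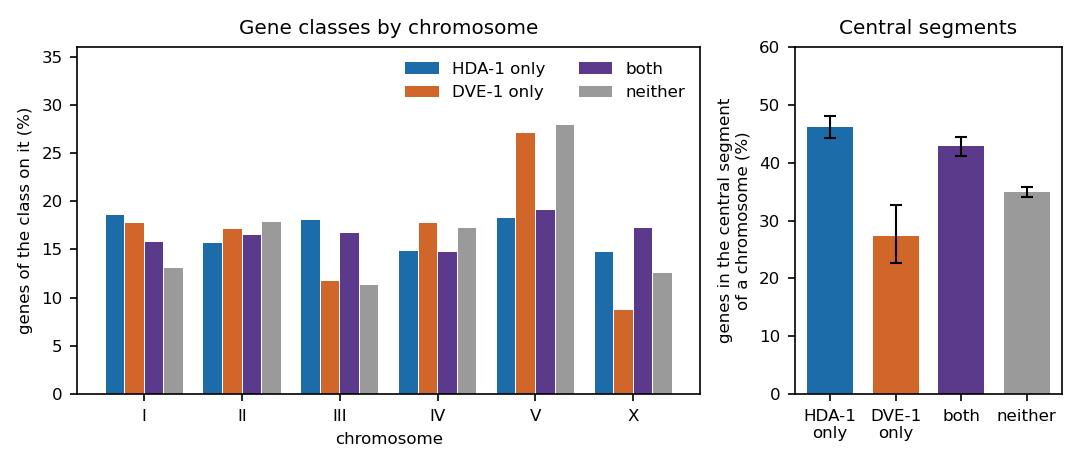
Left, share of the genes of each class on each chromosome, in percent; right, share in the central of 3 equal segments of the chromosome, with 95% Wilson intervals. Bars run HDA-1 only, DVE-1 only, both, neither. DVE-1-only genes stand out with 8.70% on X and 27.4% in central segments.

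Over the whole lists, which share 85.1% of the DVE-1 bases and 53.3% of the HDA-1 bases, the positions in genes were close. Bases within 500 bp of a 5′ end made up 27.8% of HDA-1 peak bases and 27.7% of DVE-1 peak bases, against 18.8% of the genome. Exons beyond that window made up 14.5% and 14.5%, against 22.5% of the genome, introns 26% and 25.1%, against 28.9%, and sequence between genes 26.1% and 26.2%, against 22%. Around all protein-coding genes, coverage was highest 200 bp before the 5′ end, at 27.2% of genes for HDA-1 and 16.6% for DVE-1. It was 10.7% and 7.29% at 1000 bp into the gene. A second, lower maximum lay just past the 3′ end, with 15.2% for HDA-1 at 300 bp and 10.3% for DVE-1 at 200 bp. Since genes are close together, the 3′ flank of a gene is often the 5′ flank of the next, and their parts were not separated.

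**Figure D4:**
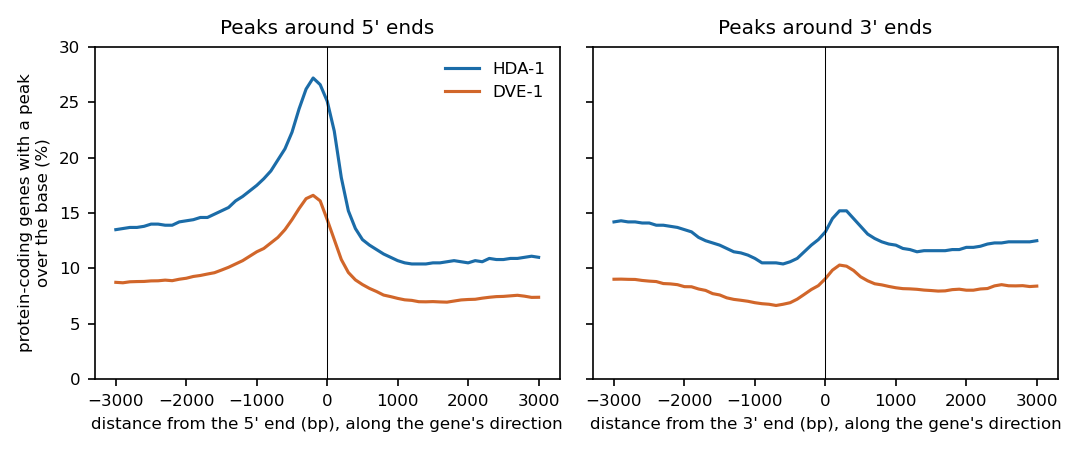
Share of protein-coding genes with an HDA-1 peak (blue) or a DVE-1 peak (orange) over the base at each distance, in percent, from 3000 bp before to 3000 bp after the 5′ end (left) and the 3′ end (right). Both curves are highest 200 bp before the 5′ end, at 27.2% for HDA-1 and 16.6% for DVE-1.

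Peaks of 1 protein alone were narrower than shared ones, but a wide peak has more chances to touch a peak of the other list. The part of this in the widths was not tested. Median width was 712 bp among HDA-1 peaks that touched no DVE-1 peak and 1682 bp among those that did. It was 781 bp among DVE-1 peaks without HDA-1 and 1362 bp among those with it. The midpoint lay within 500 bp of a 5′ end in 42.4% of HDA-1 peaks without DVE-1 (40.6 to 44.2) and in 37.9% of those with it (36.4 to 39.4). For DVE-1 peaks the shares were 33.3% without HDA-1 (28.3 to 38.8) and 38.5% with it (37.0 to 40.1), and these intervals overlapped. Bases in DVE-1 peaks alone had 22.7% at 5′ ends, 19% in exons and 5.71% within 500 bp past a 3′ end, against 26.9%, 15.4% and 3.19% of the bases in HDA-1 peaks alone. Nested peaks ran mostly in 1 direction: 2059 of 4279 DVE-1 peaks (48.1%) lay wholly inside an HDA-1 peak, and 724 of 6794 HDA-1 peaks (10.7%) wholly inside a DVE-1 peak.

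At the genes themselves, HDA-1 reached a median of 500 bp upstream and 241 bp into HDA-1-only genes and covered the 5′ end of 69.9%. DVE-1 reached 578 bp upstream and 626 bp into DVE-1-only genes and covered the 5′ end of 58.9%. At genes with both, HDA-1 reached 1183 bp upstream and 700.5 bp into the gene and DVE-1 938 bp and 636 bp. These medians of reach should not be read over all genes of any class, as the 5′ end of some genes lay outside the peak. At 500 bp into the gene HDA-1 covered 25.2% of HDA-1-only genes. DVE-1 covered 41.5% of DVE-1-only genes and 43.0% of genes with both there. HDA-1 covered 50.4% of genes with both at 500 bp and 38.6% at 1000 bp. A whole gene was covered at 9.45% of HDA-1-only genes by HDA-1 and at 16.1% of DVE-1-only genes by DVE-1. At genes with both the figures were 25.6% for HDA-1 and 20.1% for DVE-1. Genes with neither could still hold a peak further in, with HDA-1 inside 8.96% of them and DVE-1 inside 5.72%.

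Gene length and number of coding exons differed little between the bound classes, with medians of 2377 bp and 6 exons for HDA-1 only, 2267 bp and 5 exons for DVE-1 only, and 2482 bp and 6 exons for both, against 1858 bp and 5 exons for neither. Their surroundings differed more. A neighbour starting in the opposite direction from the same stretch of promoter was found at 30.7% of HDA-1-only genes (28.9 to 32.4), 17.1% of DVE-1-only genes (13.2 to 21.7), 27.4% of genes with both and 12.5% of genes with neither. The next 5′ end was a median of 1542 bp away for HDA-1 only, 2625 bp for DVE-1 only, 1775 bp for both and 2279 bp for neither. A window near other 5′ ends has more chances to be reached by a peak, and the part of this in the classes was not tested. Genes still known by a clone name were 38.5% of HDA-1-only genes and 51.2% of DVE-1-only genes, against 45.3% of all.

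The lists of the other RNAi conditions, which played no part in making the classes, showed how far each class kept to its protein. Of genes with both, 83.0% had HDA-1 in all 3 other HDA-1 lists and 91.5% had DVE-1 in all 3 other DVE-1 lists. HDA-1-only genes had HDA-1 in all 3 in 55.3% of cases, and DVE-1-only genes had DVE-1 in all 3 in 56.5%. The missing protein often appeared in another condition. Of HDA-1-only genes 69.5% (67.8 to 71.2) had a DVE-1 peak in at least 1 other DVE-1 list, against 14.9% of genes with neither, a difference of 54.6 points (52.7 to 56.4). Of DVE-1-only genes 60.5% (54.9 to 65.9) had an HDA-1 peak in at least 1 other HDA-1 list, against 9.88% of genes with neither, a difference of 50.7 points (45.0 to 56.1). After atp-2 RNAi, directed against an ATP synthase subunit of mitochondria, DVE-1 was at 55.4% of HDA-1-only genes, against 31.2% of all genes, and HDA-1 at 48.5% of DVE-1-only genes, against 31.3% of all. After hda-1 RNAi DVE-1 was at 45.0% of HDA-1-only genes, against 29.9% of all, and after dve-1 RNAi HDA-1 was at 15.4% of DVE-1-only genes, against 27.8% of all. After RNAi of atp-2 with hda-1 DVE-1 was at 57.8% of HDA-1-only genes, against 34.9% of all, while after RNAi of atp-2 with dve-1 HDA-1 was at 29.8% of DVE-1-only genes, against 31.8% of all. All genes include those classed here by having the protein in question, whereas genes with neither also lacked it. Among genes with neither, DVE-1 was at 7.12% after atp-2, 8.27% after hda-1 and 12.6% after atp-2 with hda-1 RNAi. HDA-1 was at 2.99% of them after atp-2, 4.57% after dve-1 and 6.86% after atp-2 with dve-1 RNAi. The other 3 DVE-1 lists hold between 6484 and 8221 peaks against 4279 here, and the other 3 HDA-1 lists between 6634 and 9862 against 6794 here. The HDA-1 lists with dve-1 RNAi come from 3 ChIP samples each, not 2. Their median peak width was 733 bp after dve-1 and 710.5 bp after atp-2 with dve-1 RNAi, against 1165 bp here. They covered 10.9% and 12.5% of the genome, against 13.8% here. The part of list length, peak width and sample number in these shares was not tested.

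A small core had only 1 of the proteins within 500 bp of the 5′ end in all lists. HDA-1 was in all 4 HDA-1 lists and DVE-1 in no DVE-1 list at 312 genes. Besides the neuronal unc-104, ida-1, unc-119, egl-21, unc-31 and rgef-1, they held the glutamate receptor gene glr-1, the neuropeptide genes flp-23 and nlp-45, 5 proteasome genes (pas-1, pas-4, pas-6, pbs-4 and pbs-6), 3 mitochondrial ribosomal genes (mrps-12, mrps-18A and mrps-25) and dnj-10. DVE-1 was in all 4 DVE-1 lists and HDA-1 in no HDA-1 list at 41 genes. Among the 18 of them with a symbol were fasn-1, the fatty acid synthase gene, argk-1 for arginine kinase, the transporter genes aat-7, wht-2 and zipt-2.3, the lectin genes clec-51 and clec-172, the collagen gene col-62, and the neighbours eri-6 and eri-7. None of the 41 was in the intestinal list, although 3 intestinal genes had DVE-1 only in unstressed worms.

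In percentage points, a GATA-type word differed more between DVE-1-only and HDA-1-only promoters than the other 7 words examined. Windows ran from 250 bases before the 5′ end to 50 bases after it, and 8 words were counted on both strands, with overlaps between words allowed. These 8 words, CTTATCA among them, were chosen with earlier results of these data known. CTTATCA was found in 7.46% of HDA-1-only promoters (6.52 to 8.52), 22.1% of DVE-1-only promoters (17.7 to 27.1), 12.9% of promoters with both (11.8 to 14) and 8.24% with neither, against 9.19% of all. DVE-1-only promoters exceeded HDA-1-only promoters by 14.6 points (10.2 to 19.7) and those with both exceeded HDA-1-only promoters by 5.41 points (3.92 to 6.87). The shorter TGATAA, counted on both strands after the data had been seen and overlapping CTTATCA, was in 42.8% of DVE-1-only promoters and 28.7% of HDA-1-only promoters, a difference of 14.1 points (8.31 to 20), against 30.2% of all. For CTTATCA, HDA-1-only promoters differed from those with neither by -0.778 points (-1.83 to 0.375). In the genes that kept to 1 protein in all lists, the word was in 8 of 312 promoters with HDA-1 (2.56%, 1.30 to 4.98) and in 15 of 41 with DVE-1 (36.6%, 23.6 to 51.9). In outer segments of chromosomes it was in 7.03% of HDA-1-only and 24.9% of DVE-1-only promoters, and in central segments in 7.96% and 14.6%, a smaller difference of 6.67 points (0.394 to 16). A match to these letters is no evidence that a GATA factor binds there.

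The other 7 words gave smaller differences in points between DVE-1-only and HDA-1-only promoters. CTGCGTCTC was in 4.99% of HDA-1-only promoters, 4.01% of DVE-1-only promoters and 6.26% of those with both, against 1.58% with neither and 2.93% of all. GAGAGAG was in 8.81%, 6.69% and 10.2%, against 5.45% with neither and 6.78% of all. The bZIP-type word TGACG was in 31.7%, 27.8% and 33.8%, against 27.9% with neither and 29.5% of all. The homeodomain-type word TAATTA was in 16.9%, 12.7% and 14%, against 15.7% with neither and 15.5% of all. TTTCGCGC, of the E2F type, was in 2.32% of HDA-1-only promoters, 0.669% of DVE-1-only promoters and 1.58% of those with both, against 1.14% of all. For the GC box GGGCGG and the E-box CACGTG the difference between DVE-1-only and HDA-1-only promoters was 2.76 points (-0.275 to 6.75) and -0.268 points (-2.43 to 2.92). Median GC content of the windows was 34.7% for HDA-1 only, 33.7% for DVE-1 only, 35.7% for both and 33.7% for neither.

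**Figure D5:**
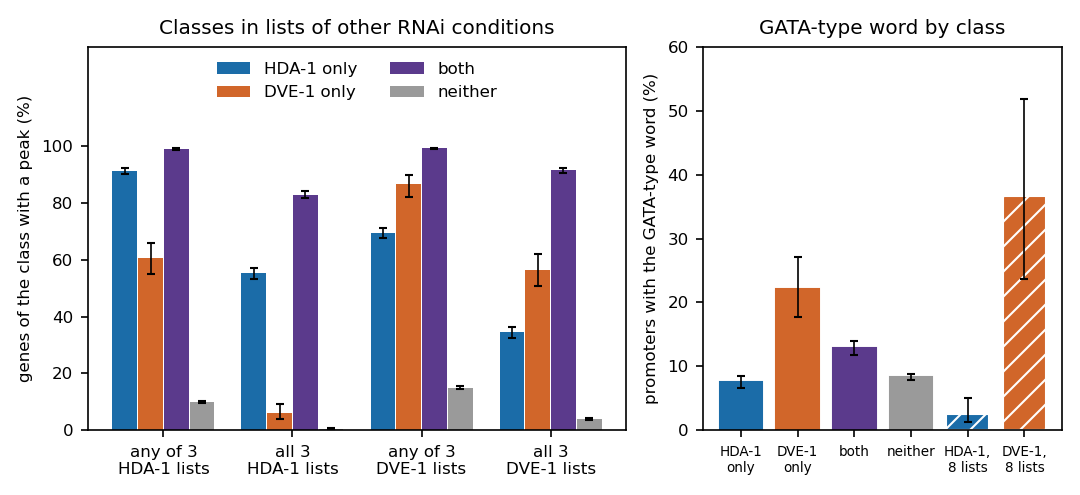
Left, share of the genes of each class with a peak in any or in all 3 of the other HDA-1 or DVE-1 lists, in percent; right, share of promoters with the GATA-type word, in percent, for the classes and, hatched, for genes that kept to 1 protein in all 8 lists. Error bars are 95% Wilson intervals. The word is in 22.1% of DVE-1-only and 7.46% of HDA-1-only promoters, and in 36.6% and 2.56% of those that kept to 1 protein.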

How the data were processed

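The authors sequenced 2 ChIP and 2 input samples for each protein, trimmed the reads with Trim Galore, mapped them to ce11 with BWA 0.7.13-r1126, discarded reads that were not uniquely mapped or not in proper pairs, dropped PCR duplicates using Picard 2.17.6 and called broad peaks with MACS2 2.1.1. They deposited 1 list per condition that holds only the start and end of each peak. How replicates were combined is not given in the sources used here, and the lists hold no read counts, although the study's reporting summary states a minimum of reads per sample, so weak sites may be missing from either list.

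The lists were joined to Ensembl 115 gene models and the RefSeq genome of WBcel235 in Python 3.11.15 with numpy 2.4.6, scipy 1.17.1 and matplotlib 3.10.9. An overlap of 1 bp counted. A gene belonged to a list if a peak came within 500 bp of the 5′ end of its longest extent. Exons, introns and flanks were ranked in the order 5′ window, exon, intron, 3′ flank. The code was checked on planted peaks, where 800 of 800 genes were put in their class. Gene lists, words and the gene classes themselves were chosen with earlier results of these data known. Genes named one by one were all members of 9 short lists, the 8 genes per single-protein class and the 6 genes with both that had most covered bases and a symbol, the genes nearest the 500 bp limit, and the tissue lists, with further family members named by class. The symbol egr-1 in the list of complex subunits did not match a gene name in the annotation. Alternatives varied the distance, peak width, list length and gene assignment.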

Additional observations from a re-analysis of the deposited data

How the results depend on the processing

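No paired analysis was possible because each condition has 1 list of peaks and no test was made. Of the recomputed values of the main comparisons, 49 stayed close to those reported and 25 moved, and no difference between gene classes changed sign. With at least 50% of the window covered, 2339 genes had both. With only peaks of at least 1000 bp, 1724 had HDA-1 only and 2337 both. With the HDA-1 list cut to its widest peaks, chosen to equal the DVE-1 list in number, 1438 had HDA-1 only and 888 DVE-1 only, and 21 lists of genes had more HDA-1 than DVE-1, while 17 had more DVE-1, against 3 with the whole list, and the vacuolar pump genes turned in direction. With each peak given to its nearest gene, 516 had DVE-1 only and 2270 both, the difference in central segments was 6.86 points and that on chromosome V -0.898 points, with an interval that included 0. The share of HDA-1 at 5′ ends was 39.8% by peak midpoints, 39.9% by the central 200 bp of each peak and 24.3% for peaks of at least 1000 bp, and that of DVE-1 was 38.2%, 38.1% and 25%, so for wide peaks the order of the proteins turned. HDA-1-only genes with DVE-1 in another list were 62.3% at 0 bp and 71.4% at 1000 bp. For the GATA-type word, DVE-1-only minus HDA-1-only promoters gave 9.73 points on the sense strand alone and 24.7 with the 5′ end itself in the peak. The splits chosen after seeing the data gave 9.78 with the shortened HDA-1 list and 6.67 in central segments. Promoters with both minus HDA-1-only gave 3.41 on the sense strand, 7.85 with the 5′ end in the peak and 3.92 in central segments. The causes of these shifts were not tested. The lists hold no read counts or peak strength, so a gene outside a list may hold weaker binding.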
